A study of Arabidopsis thaliana with 10 samples.

Results

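The comparison described here was P1-12 (+0.25 μM Dex) against P1-12 (+DMSO), that is, seedlings of 1 transgenic line grown with dexamethasone (Dex) or with its solvent DMSO alone. It used 4 of the 10 RNA-seq libraries of the series, 2 per treatment. Its members were all genes expressed well enough to be compared, reaching over 2 CPM (counts scaled to library size) in 9 or more of the 10 libraries, a rule that sets no threshold on the response to Dex but drops genes at or under 2 CPM in any 2 libraries, including both with 0.25 μM Dex or both with DMSO. Such genes are described separately, by their counts. Of 33602 loci, 16721 were tested. All libraries came from whole Arabidopsis thaliana seedlings of ecotype Col-0, sampled at 8 d on sucrose medium in long days. P1-12 carries the construct pTA7002-Dexp:KRAB, in which Dex induces the repressor dCas9-KRAB, together with the sgRNA gene U6-26p:P1. The repressor alone is carried by the line KRAB, whose libraries, 2 with DMSO and 2 with 0.25 μM Dex, are used here as a reference. The remaining 2 libraries, P1-12 (+0.025 μM Dex), entered the expression filter and the shared estimate of the spread. P1-12 and KRAB are 1 line each, so the effect of a line's insertion sites and that of its construct cannot be told apart. Within P1-12 the same holds for Dex, the repressor and the loss of MORF2 transcripts.

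MORF2 is a plastid protein that takes part in the editing of chloroplast RNA. Chloroplasts report their state to the nucleus by retrograde signalling, through which the nuclear genes of photosynthesis are repressed and stress genes are induced when plastid development or function is impaired. In CRISPR interference a catalytically dead Cas9 carries a repressor to the site its sgRNA recognises. The site is shown because it defines the treatment. TAIR10.1 holds 1 exact match to it, at chr2:14162303-14162322 (plus strand). The match lies in an exon of AT2G33420, the locus numbered before MORF2, and 2 of its 20 bases are coding there. The annotation used here has no entry for MORF2, so the distance from the site to that gene was not measured. The study designed P1 against the region around the transcription start of MORF2. By its metadata analysis, AT2G33420 was expressed specifically in flower, pollen and silique. The level of AT2G33420 in these libraries is not given here. The protospacer is given in lower case, 5′ to 3′, and its PAM in capitals.

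P1: gaactggtaagaagtaagaaAGG

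MORF2 (AT2G33430) fell to 0.470 times its control level, with 113 and 118 CPM in P1-12 (+DMSO) and 52.3 and 56.0 CPM in P1-12 (+0.25 μM Dex), so the targeted gene followed the labels. The libraries held 12965935 and 12602935 counts in P1-12 (+DMSO) and 9139050 and 10236033 in P1-12 (+0.25 μM Dex). Genes were tested by edgeR's quasi-likelihood test with Benjamini-Hochberg adjustment over all 16721 genes. Upregulated SDEGs, genes with at least a 2-fold rise at an adjusted p under 0.0001 in edgeR, numbered 991 (5.93% of those tested), and downregulated SDEGs 1347 (8.06%). At an adjusted p under 0.05, the rule used below for single genes and lists, 4727 genes (28.3%) were higher and 4885 (29.2%) lower, and 4127 of these changed by less than 1.5-fold. Changes were therefore common, and each list below is read against these shares and against the median log2 fold change of all tested genes, −0.00. By the same rule, 2.06% of tested genes were higher and 0.813% lower in KRAB with 0.25 μM Dex. The KRAB counts of each list are read against these KRAB shares. The p-values measure the spread between 2 libraries per group, of which nothing given here says how the seedlings were kept apart. The spread was small, since 56 genes (0.335%) differed 2-fold or more between the P1-12 (+DMSO) libraries and 68 (0.407%) between those with 0.25 μM Dex.

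The rise and the fall were unequal in reads. Upregulated SDEGs took 3.65% and 3.89% of all counts in P1-12 (+DMSO) and 14.1% and 13.97% in P1-12 (+0.25 μM Dex). Downregulated SDEGs took 24.3% and 24.2% and then 9.34% and 8.93%. Falls were the more frequent and rises the larger: 262 SDEGs rose and 208 fell by 4-fold or more, and 23 rose and 15 fell by 16-fold or more. The balance depends on the scaling. Among genes called at an adjusted p under 0.05, 49.2% were higher with TMM scaling and 60.4% with scaling to total counts, which moved the median of all genes to 0.11, and for SDEGs the shares were 42.4% and 52.1%.

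**Figure D1:**
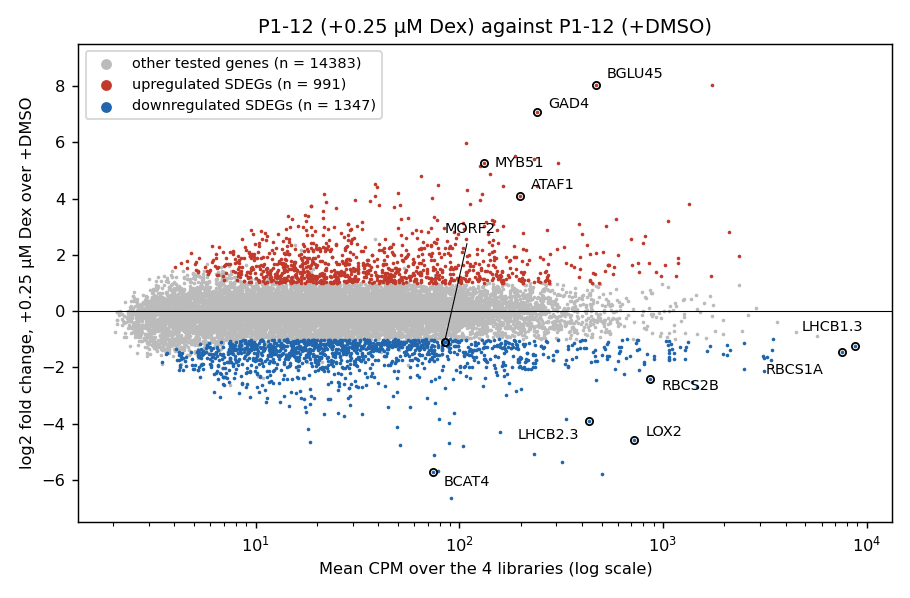
Log2 fold change of the 16721 tested genes (vertical axis) against their mean CPM over the 4 libraries (horizontal axis, log scale), with upregulated SDEGs in red, downregulated SDEGs in blue and 11 named genes circled. RBCS1A, RBCS2B and LHCB1.3 lie far to the right and below 0, and BGLU45, GAD4, MYB51 and ATAF1 lie high above 0 at a middle level.

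The listed nuclear genes of photosynthesis fell nearly without exception, and plastid loci are given separately below. The light-harvesting antenna list, proteins that bind chlorophyll and collect light, fell in 18 of 18 members with a median log2 fold change of −1.57, and the list of nuclear photosystem and electron transport subunits fell in 30 of 30 with a median of −1.36. Of 19 genes of carbon fixation 18 fell (median −1.04), and CP12-2 was at 0.13, not past the test. In P1-12 (+DMSO) the summed antenna genes stood at 68095 and 68375 CPM, and in P1-12 (+0.25 μM Dex) at 25843 and 24162 CPM. In bulk seedlings, fewer green cells and less RNA per green cell cannot be told apart.

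Within the antenna the fall was uneven. LHCB2.3, which encodes a protein of the major antenna of photosystem II, was at 848 and 783 CPM in P1-12 (+DMSO) and 57.5 and 52.7 CPM in P1-12 (+0.25 μM Dex). Its log2 fold change was −3.89 (SE 0.17, edgeR adjusted p = 3.66e-10). LHCB1.4 went from 2494 and 2608 CPM to 413 and 382 CPM (−2.68, SE 0.12, edgeR adjusted p = 3.68e-10), and LHCB3 from 3973 and 4086 CPM to 995 and 947 CPM (−2.05, SE 0.10, edgeR adjusted p = 1.01e-09). In each the groups lay far apart and the 2 libraries of a group close together. LHCB1.3, at 12283 and 12381 CPM before and 5501 and 5049 CPM after, fell by 1.23 on the log2 scale (SE 0.09, edgeR adjusted p = 5.99e-08), and LHCB4.3 of the minor antenna fell least, by 0.57. LHCB1.1, LHCB1.2 and LHCB1.3 are near-identical in sequence, so the division of reads among them is uncertain.

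Rubisco small subunit genes differed in the same way. RBCS2B held 1584 and 1341 CPM in P1-12 (+DMSO) and 272 and 274 CPM in P1-12 (+0.25 μM Dex), or 1462 ± 172 against 273 ± 2.02 CPM (mean ± SD, n = 2), and its log2 fold change was −2.42 (SE 0.11, edgeR adjusted p = 5.04e-10). For RBCS1A, with 11337 and 10820.3 CPM and then 4189.6 and 3879 CPM, it was −1.46 (SE 0.09, edgeR adjusted p = 7.05e-09). RBCS2B, RBCS3B and RBCS1B are close copies, and their separate values are uncertain. Among photosystem genes PSBQ1, a subunit of the oxygen-evolving complex, fell by 1.88 and PSBO1, another one, by 1.14. Of 10 photorespiration genes 8 fell, led by GLDH1 of glycine decarboxylase (−1.68, SE 0.07, edgeR adjusted p = 2.74e-10), while GGAT1, which transaminates glyoxylate, rose from 1164 and 1166 CPM to 1801 and 1707 CPM (0.59, SE 0.07, edgeR adjusted p = 8.94e-06).

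The promoters of a strongly reduced antenna gene and Rubisco gene are shown because both families fell together, and each holds a G-box (CACGTG), a site known to be bound by light-signalling factors. RBCS2B also holds I-boxes (GATAAG), which occur in many light-regulated promoters. Both are the 300 bases before the annotated gene start in RefSeq's TAIR10.1, written 5′ to 3′ in the direction of the gene with the motifs in capitals on either strand. LHCB2.3 lies on the plus strand (chr3:10255606-10255905) and RBCS2B on the minus strand (chr5:15382072-15382371).

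LHCB2.3: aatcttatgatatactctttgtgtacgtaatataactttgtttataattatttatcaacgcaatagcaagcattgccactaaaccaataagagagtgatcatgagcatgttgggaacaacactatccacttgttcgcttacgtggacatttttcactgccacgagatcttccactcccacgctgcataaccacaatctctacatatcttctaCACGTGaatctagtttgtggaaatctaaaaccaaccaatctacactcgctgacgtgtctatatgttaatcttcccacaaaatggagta

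RBCS2B: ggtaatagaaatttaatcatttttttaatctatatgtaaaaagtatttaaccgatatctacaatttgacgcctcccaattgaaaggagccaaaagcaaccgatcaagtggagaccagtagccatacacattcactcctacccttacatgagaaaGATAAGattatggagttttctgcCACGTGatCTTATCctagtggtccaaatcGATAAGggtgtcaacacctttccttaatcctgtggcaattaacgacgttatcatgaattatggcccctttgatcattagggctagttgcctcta

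Both promoters were picked after their values were seen. A G-box occurred in 4 of 18 antenna promoters, in 9.43% of 1336 promoters of downregulated SDEGs, in 6.45% of 977 of upregulated SDEGs and in 7.85% of all 16661 promoters read. Shares of the I-box were 18.6%, 19.8% and 14.8% in the same order. Each motif was searched as the letters given, on both strands, without regard to overlap with others, and a match is a description of the sequence only.

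Genes of pigment synthesis fell as the antenna genes did. Of 25 genes of tetrapyrrole and chlorophyll synthesis 23 fell (median −1.08). PORC and PORB encode the light-dependent enzymes that reduce protochlorophyllide. PORC went from 188 and 190.3 CPM in P1-12 (+DMSO) to 35.7 and 36.4 CPM in P1-12 (+0.25 μM Dex) (−2.39, SE 0.12, edgeR adjusted p = 8.36e-10), and PORB from 1248 and 1221 CPM to 304 and 282 CPM (−2.07, SE 0.10, edgeR adjusted p = 8.3e-10). DVR, the divinyl reductase, fell by 2.17, and GUN5, the large subunit of magnesium chelatase, by 0.72. The 1 gene that rose was FC1 (AT5G26030), a ferrochelatase of the haem branch (0.42, SE 0.07, edgeR adjusted p = 0.000175). The isoprenoid and carotenoid list fell in 18 of 20 (median −0.82), most in MCT of the plastid precursor pathway (−1.96, SE 0.10, edgeR adjusted p = 1.62e-09). Its 1 rise was VDE, the violaxanthin de-epoxidase of photoprotection, which went from 86.1 and 79.1 CPM to 229 and 219.8 CPM (1.44, SE 0.07, edgeR adjusted p = 1.01e-09).

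Regulators of greening split. GLK2 and GLK1, transcription factors that activate photosynthesis genes, went from 65.5 and 75.7 CPM to 20.2 and 17.59 CPM (−1.90, SE 0.12, edgeR adjusted p = 1.07e-08) and from 73.0 and 68.8 CPM to 34.6 and 31.0 CPM (−1.11, SE 0.11, edgeR adjusted p = 7.52e-07). GNC, a GATA factor of chloroplast development, fell by 1.54, PIF4 by 1.19, and HY5, a promoter of light responses, rose by 0.51. GUN1, a plastid protein of retrograde signalling, stood at 362 and 346 CPM and 322 and 331 CPM and did not pass the test (−0.12, SE 0.08, edgeR adjusted p = 0.212). Over the 9 tested members 4 fell and 1 rose (median −0.12).

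Genes of the machinery that transcribes and folds plastid products fell as well. All 12 nuclear genes for proteins associated with the plastid-encoded RNA polymerase fell, with a median of −1.43. TRXZ, a thioredoxin of that complex, was at 51.9 and 47.7 CPM in P1-12 (+DMSO) and 12.1 and 13.7 CPM in P1-12 (+0.25 μM Dex) (−1.95, SE 0.11, edgeR adjusted p = 4.47e-09), and FLN2, a fructokinase-like protein, at 103 and 93.1 CPM and 27.7 and 24.1 CPM (−1.93, SE 0.09, edgeR adjusted p = 8.43e-10). Of 8 sigma factors and phage-type polymerases 6 fell, SIG4 most (33.8 and 38.2 CPM to 10.5 and 8.42 CPM, −1.93, SE 0.14, edgeR adjusted p = 3.77e-08). The other two rose, SIG5, a stress- and light-induced sigma factor, by 0.66 and RPOTMP, a polymerase of mitochondria and plastids, by 0.71. In the MORF family itself 4 of 8 fell, the targeted MORF2 among them, 1 rose and 3 did not pass the test (median −0.35). MORF9 fell by 1.11.

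Chloroplast chaperones and proteases fell in 16 of 21 (median −0.78), and the chaperonins that fold Rubisco and other stromal proteins led the list. CPN60B1 went from 984 and 897 CPM in P1-12 (+DMSO) to 237 and 219.7 CPM in P1-12 (+0.25 μM Dex) (−2.04, SE 0.08, edgeR adjusted p = 1.68e-10), and its co-chaperonin CPN20 from 708 and 661 CPM to 196 and 198 CPM (−1.80, SE 0.07, edgeR adjusted p = 1.26e-10). CLPC1, the stromal protease chaperone, was at 1828 and 1829 CPM and 1635 and 1633 CPM and was not past the test, nor were CLPB3 and FTSH1. CLPD rose by 1.23 and FTSH8 by 0.64. Outside the plastid the list of cytosolic heat shock and ER stress genes rose in 5 of 8 members (median 0.59), and in KRAB 3 of the 8 rose (median 0.30). The response was more positive in P1-12 for 4 of the 8 and more negative for 3, beside 22.9% and 25.1% of all tested genes. HSP70 (AT3G12580) rose from 22.8 and 23.6 CPM to 81.6 and 88.4 CPM (1.87, SE 0.11, edgeR adjusted p = 6.25e-09), and by 0.56 in KRAB. A further 5 genes of the list were not tested, and they went both ways. HSP18.2 had 55 and 65 counts and then 9 and 14, and BIP3 16 and 41 and then 14 and 21. HSP17.4 had 7 and 10 and then 104 and 107, and HSP17.6C 4 and 7 and then 40 and 30.

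**Figure D2:**
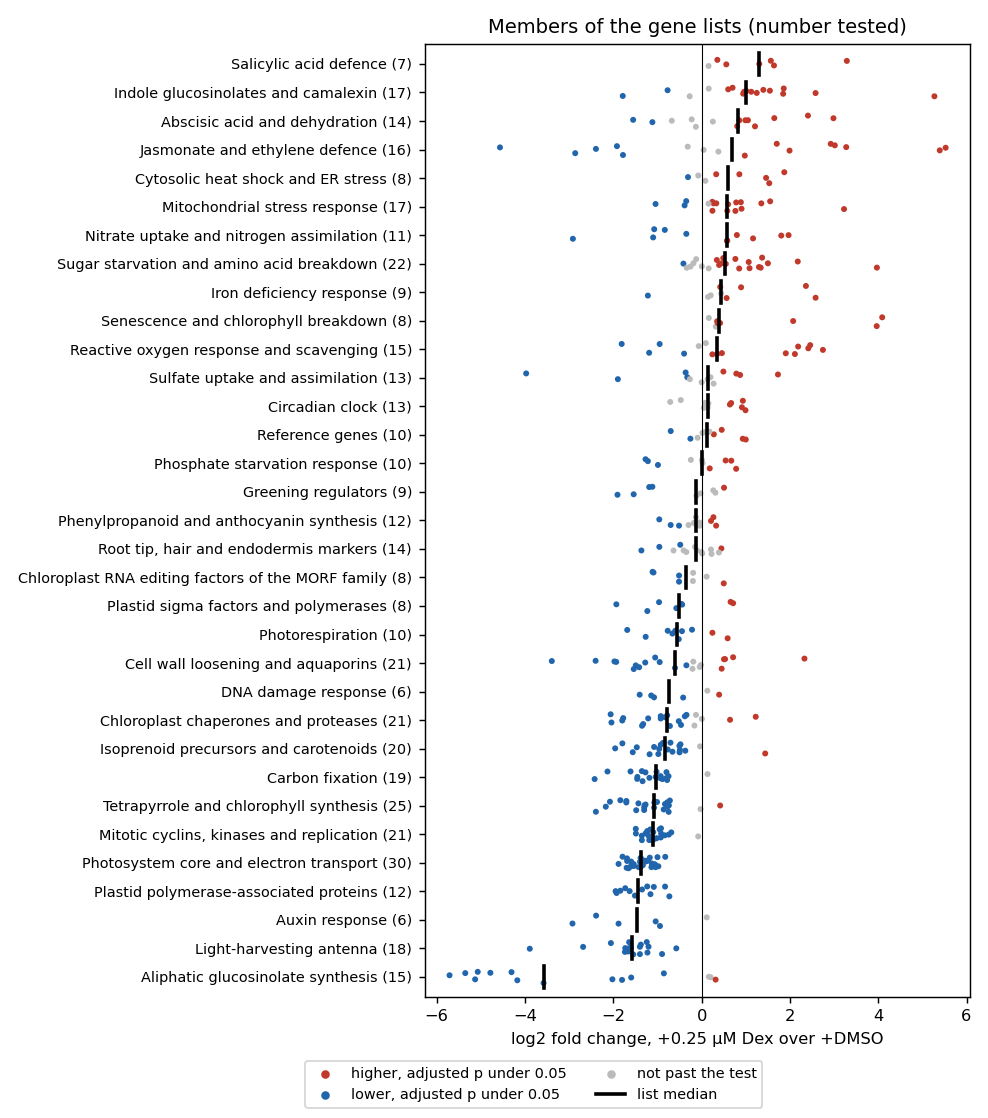
Log2 fold change of each tested member (points) of 33 gene lists, with the number tested in brackets, the list median as a black bar, members higher at an adjusted p under 0.05 in red, lower in blue and not past the test in grey. Antenna, photosystem, plastid polymerase and aliphatic glucosinolate lists lie wholly or nearly wholly below 0, and the salicylic acid list lies wholly above 0.

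Enzymes of aliphatic glucosinolates, defence compounds made from methionine, fell in 12 of 15 tested members with a median of −3.58, the lowest of the 33 lists that could be tested. GSTU20, a glutathione transferase expressed with this pathway, was at 585 and 668 CPM in P1-12 (+DMSO) and 19.5 and 11.5 CPM in P1-12 (+0.25 μM Dex) (−5.35, SE 0.16, edgeR adjusted p = 1.24e-11). CYP83A1, which oxidises the aldoximes of the pathway, was at 175 and 227 CPM and 9.37 and 5.43 CPM (−4.78, SE 0.17, edgeR adjusted p = 7.75e-11). MYB28, an activator of these genes, fell by 1.59. SOT17, a sulfotransferase, was the 1 gene of the list that rose, by 0.32. Of the 6 untested genes of the list 5 lay under 2 CPM in both libraries with 0.25 μM Dex, namely CYP79F1, CYP79F2, GSTF11, FMOGS-OX1 and MYB29. CYP79F1, the first enzyme of the core pathway, had 1092 and 1969 counts and then 10 and 8. MYB29, a second activator, had 139 and 134 counts and then 1 and 0, and FMOGS-OX1 had 134 and 287 and then 2 and 4. In KRAB 2 of the 15 tested genes rose and none fell. MAM3, which elongates longer side chains, fell by 0.85 in P1-12 and rose by 0.60 in KRAB, a difference of −1.45 (SE 0.18, edgeR adjusted p = 1.72e-05).

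Indole glucosinolates and camalexin, made from tryptophan, moved the other way, with 13 of 17 genes higher, 2 lower and a median of 1.01. In KRAB 6 of the 17 rose and none fell (median 0.34), where 2.06% of all tested genes rose and 0.813% fell. CYP83B1, the counterpart of CYP83A1 in the indole branch, went from 188 and 212 CPM to 1143 and 1251 CPM (2.58, SE 0.10, edgeR adjusted p = 1.09e-10). WRKY33, an activator of camalexin synthesis, went from 13.0 and 21.4 CPM to 59.3 and 64.2 CPM (1.85, SE 0.17, edgeR adjusted p = 3.39e-07), and PEN3 (AT1G59870), a transporter at the plasma membrane, rose by 1.25. The 2 falls were MYB34, an indole glucosinolate activator, by 1.78 and PAD3, the last enzyme of camalexin synthesis, by 0.77. IGMT2, a methyltransferase, rose by 1.86 in P1-12 and by 1.78 in KRAB, and its responses in the lines were not told apart (0.08, SE 0.28, edgeR adjusted p = 0.832). IGMT1 and IGMT2 are near-identical, so that value is uncertain.

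Sulfur, which both classes of glucosinolate contain, gave no common direction. Over 13 sulfate genes 4 rose and 4 fell (median 0.14, which turned to −0.04 without P1-12 (+DMSO) replicate 1). SULTR2;1, a vascular sulfate transporter, was the exception in size. It stood at 167 and 169 CPM in P1-12 (+DMSO), 10.11 and 11.2 CPM in P1-12 (+0.25 μM Dex) and 155 and 167 CPM in KRAB (+0.25 μM Dex). Its log2 fold change in P1-12 was −3.97 (SE 0.10, edgeR adjusted p = 2.52e-12). APS3, an ATP sulfurylase, fell by 1.90, SDI2, a repressor of glucosinolate synthesis under sulfur limitation, rose by 1.73, and SIR, the sulfite reductase, was at 573 and 608 CPM and 578 and 605 CPM.

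Defence genes of the hormone pathways split by branch. In the jasmonate and ethylene list 8 of 16 rose, 5 fell and the median was 0.68, while in KRAB 4 rose and none fell (median 0.39). The risers were 5 antimicrobial genes, ORA59, and JAZ1 and JAZ10, repressors of jasmonate signalling. PR4, a chitin-binding protein, went from 90.9 and 129 CPM in P1-12 (+DMSO) to 1061 and 1063 CPM in P1-12 (+0.25 μM Dex) (3.28, SE 0.17, edgeR adjusted p = 1.47e-09), and ORA59, an ERF that activates defensin genes, from 4.31 and 9.54 CPM to 54.5 and 57.2 CPM (3.02, SE 0.23, edgeR adjusted p = 5.66e-08). The fallers were enzymes of jasmonate synthesis, LOX2, LOX3, AOS, AOC1 and AOC2. LOX2, the first of them, was at 886 and 1895 CPM and then 46.7 and 70.4 CPM (−4.56, SE 0.31, edgeR adjusted p = 1.85e-08). VSP2, a vegetative storage protein induced by jasmonate and outside the filter, had 1813 and 4562 counts and then 6 and 9.

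LOX2 and VSP2 were also unequal in the control. Of 208 SDEGs with a fall of 4-fold or more, 7 differed 2-fold or more between the P1-12 (+DMSO) libraries, and all 7 were higher in library 2. LOX2, BGLU18, CORI3, AT1G52000 and AT3G28220 were among them. AT3G28220, a TRAF-like gene, had 71.7 and 287 CPM in P1-12 (+DMSO) and 2.11 and 1.497 CPM in P1-12 (+0.25 μM Dex), so even the lower control library stood far above both treated ones. None of the 262 rises of 4-fold or more had such a difference between the libraries with 0.25 μM Dex. Their P1-12 (+DMSO) libraries were not compared in this way, and some were unequal there, such as PDF1.2 at 2.07 and 13.9 CPM. The part of the unequal control libraries in these falls was not tested beyond leaving each out, which kept the 5 named here called.

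The promoters of PDF1.2, a plant defensin gene, and of ORA59 are shown because both genes rose and both hold 1 GCC-box (GCCGCC), the known target of ERF proteins. Whether ORA59 acted on PDF1.2 here was not tested. They are again the 300 bases before the annotated start in RefSeq's TAIR10.1, 5′ to 3′ in the direction of the gene with the GCC-box in capitals. PDF1.2 lies on the minus strand (chr5:17907639-17907938) and ORA59 on the plus strand (chr1:1882607-1882906).

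PDF1.2: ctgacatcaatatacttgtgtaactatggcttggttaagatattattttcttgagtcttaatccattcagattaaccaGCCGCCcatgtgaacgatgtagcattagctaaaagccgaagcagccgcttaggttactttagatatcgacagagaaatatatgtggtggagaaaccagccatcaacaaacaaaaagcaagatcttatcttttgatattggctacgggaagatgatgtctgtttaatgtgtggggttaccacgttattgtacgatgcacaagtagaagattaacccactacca

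ORA59: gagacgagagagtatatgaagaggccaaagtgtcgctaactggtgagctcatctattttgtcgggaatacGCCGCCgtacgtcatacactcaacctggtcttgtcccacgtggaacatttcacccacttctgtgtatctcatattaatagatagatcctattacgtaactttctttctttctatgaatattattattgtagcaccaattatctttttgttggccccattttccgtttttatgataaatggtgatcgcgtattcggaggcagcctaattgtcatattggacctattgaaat

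Both were picked after their values were seen. PDF1.2 was at 2.07 and 13.9 CPM and then 383 and 348 CPM, and since the defensin genes PDF1.2 to PDF1.3 are close copies its share of their reads is uncertain. In KRAB PDF1.2 also rose, by 2.17 (SE 0.43, edgeR adjusted p = 0.0144). A GCC-box occurred in 3.69% of promoters of upregulated SDEGs, in 2.17% of those of downregulated SDEGs and in 2.44% of all. The W-box core (TTGAC), which WRKY factors bind, occurred in 53.5%, 43.0% and 49.9%. The evening element (AAATATCT) occurred in 8.09%, 5.69% and 5.89%. The site II element (TGGGCC), found before many housekeeping and ribosomal genes, occurred in 8.19%, 18.0% and 18.7%, and the telo-box (AAACCCTA) in 2.56%, 3.82% and 4.39%. These shares are descriptions and were not tested.

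Salicylic acid genes rose without a fall, in 6 of the 7 that were tested, with a median of 1.31. PR5, a thaumatin-like defence protein, went from 9.58 and 9.54 CPM in P1-12 (+DMSO) to 91.4 and 95.6 CPM in P1-12 (+0.25 μM Dex) (3.29, SE 0.15, edgeR adjusted p = 4.69e-10). ICS1, the enzyme that makes the precursor of salicylic acid, went from 12.7 and 13.9 CPM to 43.2 and 39.8 CPM (1.64, SE 0.11, edgeR adjusted p = 1.46e-08). Its groups did not overlap, as was so for 79.7% of all tested genes. PAD4 and SAG101, partners of the immune regulator EDS1, rose by 1.57 and 1.31. In KRAB none of the 7 tested genes passed the test.

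Other genes of the branch were too low in the control for the filter and are given by their counts only. SARD1, an activator of ICS1, had 8 and 23 counts in P1-12 (+DMSO) and 1375 and 1520 in P1-12 (+0.25 μM Dex), and CBP60G, its relative, 10 and 30 and then 190 and 189. PR1, the marker gene of the response, had 0 and 9 counts and then 643 and 570. PR2 was unequal in the control, with 11 and 173 counts there and 196 and 194 with Dex. In KRAB (+0.25 μM Dex) SARD1 had 515 and 80 counts against 18 and 18 in KRAB (+DMSO), in libraries of 40544617, 11258981, 11572935 and 29749669 counts.

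**Figure D3:**
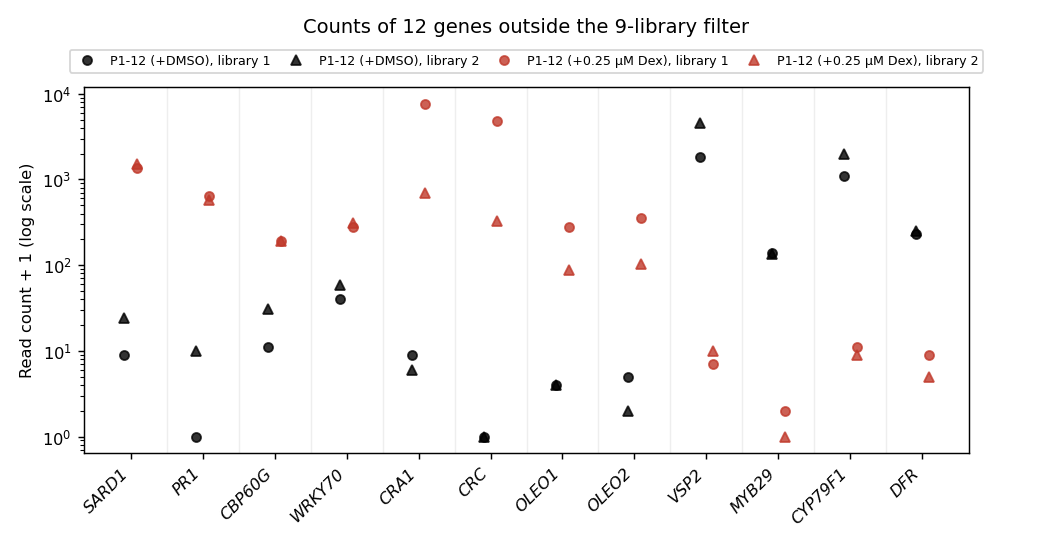
Read count plus 1 (vertical axis, log scale) of 12 genes outside the 9-library filter in the 2 P1-12 (+DMSO) libraries (black) and the 2 P1-12 (+0.25 μM Dex) libraries (red), circles for library 1 and triangles for library 2. SARD1, PR1, CBP60G and WRKY70 are high with Dex in both libraries alike, CRA1, CRC, OLEO1 and OLEO2 are higher in library 1 than in library 2, and VSP2, MYB29, CYP79F1 and DFR are low with Dex.

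Stress genes linked to mitochondria and reactive oxygen rose in part. Of 17 genes of the mitochondrial stress response 13 rose and 3 fell (median 0.58). In KRAB 5 of them rose and none fell (median 0.47), where 2.06% of all tested genes rose. By the test of the difference 5 responded more positively and 4 more negatively in P1-12. Over all tested genes these shares were 22.9% and 25.1%. NAC053, a membrane-bound NAC factor, was at 28.6 and 27.6 CPM in P1-12 (+DMSO) and 262 and 264 CPM in P1-12 (+0.25 μM Dex) (3.23, SE 0.11, edgeR adjusted p = 5.61e-11). AOX1A, the alternative oxidase gene that marks this response, rose by 0.24 only. UPOX, at 3.03 and 4.77 CPM and then 2.42 and 1.404 CPM, fell by 1.04 (SE 0.34, edgeR adjusted p = 0.0169), a call that was lost without P1-12 (+DMSO) replicate 2 (−0.69) or P1-12 (+0.25 μM Dex) replicate 2 (−0.68).

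In the list of reactive oxygen response and scavenging 9 of 15 rose and 4 fell (median 0.35), and in KRAB 2 rose and 2 fell. Copper/zinc and iron superoxide dismutases, enzymes that remove superoxide, went opposite ways. CSD2 of the chloroplast rose from 40.5 and 45.5 CPM to 236 and 237 CPM (2.46, SE 0.11, edgeR adjusted p = 3.08e-10) and CSD1 of the cytosol from 73.0 and 80.9 CPM to 347 and 354 CPM (2.19, SE 0.10, edgeR adjusted p = 3.47e-10). FSD1 of the iron type fell by 1.81 and FER4, a ferritin, by 1.19. RBOHD, the NADPH oxidase of the plasma membrane, rose from 42.9 and 54.5 CPM to 247 and 273 CPM (2.42, SE 0.12, edgeR adjusted p = 1.29e-09), and WRKY18 by 2.75. CAT3 (AT1G20620), a catalase, was at 2568 and 2984 CPM and 2931 and 3008 CPM, and its groups overlapped.

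**Figure D4:**
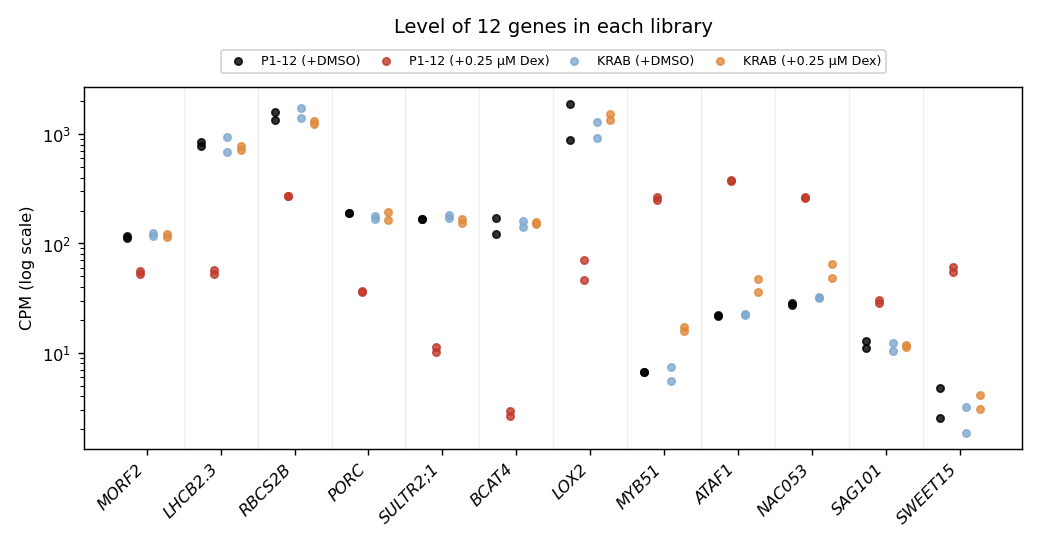
CPM (vertical axis, log scale) of 12 genes in each library, 2 points per group, for P1-12 (+DMSO) in black, P1-12 (+0.25 μM Dex) in red, KRAB (+DMSO) in light blue and KRAB (+0.25 μM Dex) in orange. The red points stand apart from the black ones in every gene shown, and MYB51, ATAF1 and NAC053 are also higher in KRAB (+0.25 μM Dex) than in KRAB (+DMSO), by less.

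Genes of carbon starvation rose, 15 of 22 with 1 fall and a median of 0.52, although all seedlings grew on sucrose. BCAT2 and IVD break down branched-chain amino acids. BCAT2 was at 13.7 and 16.4 CPM in P1-12 (+DMSO) and 75.4 and 61.0 CPM in P1-12 (+0.25 μM Dex) (2.18, SE 0.13, edgeR adjusted p = 7.9e-09), and at 12.4 and 13.8 CPM and then 8.76 and 6.5 CPM in KRAB (−0.72, SE 0.15, edgeR adjusted p = 0.0189). IVD went from 44.9 and 49.3 CPM to 135 and 132 CPM in P1-12, a rise, and fell by 0.46 in KRAB. GAT1_2.1, a glutamine amidotransferase-like gene, was at 23.7 and 21.5 CPM and then 55.8 and 55.5 CPM in P1-12, and at 17.8 and 20.8 CPM and then 3.98 and 4.01 CPM in KRAB. Its responses differed by 3.59 (SE 0.15, edgeR adjusted p = 2.87e-09). Of the 22 genes 17 responded more positively in P1-12 than in KRAB, against 22.9% of all tested genes, and 25.1% of all responded more negatively. In KRAB 8 of the 22 fell with Dex and none rose, where 2.06% of all genes rose and 0.813% fell.

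Genes of chlorophyll breakdown and of leaf senescence, the breakdown phase in which such genes are also used, rose in 6 of 8 (median 0.39), and in KRAB 2 rose and 1 fell. ATAF1, a NAC factor that promotes senescence, was at 21.7 and 22.3 CPM and then 379 and 371 CPM (4.09, SE 0.12, edgeR adjusted p = 8.29e-12). SWEET15, a sugar transporter, was at 4.79 and 2.55 CPM and then 60.8 and 54.6 CPM (3.97, SE 0.20, edgeR adjusted p = 1.35e-09), and WRKY6 rose by 2.07. The others that rose, NYC1, NYE1 and PAO of chlorophyll breakdown, did so by under 1.5-fold, and NYE1 lost its call without P1-12 (+DMSO) replicate 1 (0.27) or either library with 0.25 μM Dex (0.40 and 0.43). Outside the filter ORE1 had 21 and 36 counts and then 80 and 62, and SAG13 had 13 and 83 and then 51 and 42. In KRAB SAG13 was at 0.794 and 0.104 CPM and then 6.19 and 1.77 CPM.

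Nitrogen genes changed in all 11 members, 6 up and 5 down (median 0.57). NIA2, a nitrate reductase, was at 880.1 and 1035 CPM in P1-12 (+DMSO) and 3741 and 3761 CPM in P1-12 (+0.25 μM Dex) (1.97, SE 0.12, edgeR adjusted p = 5.2e-09). LBD38 and LBD37, repressors of nitrate responses, rose by 1.80 and 1.17. NRT2.1, the high-affinity nitrate transporter of roots, was at 19.5 and 9.71 CPM and then 2.32 and 1.59 CPM (−2.91, SE 0.41, edgeR adjusted p = 3.25e-05). The reductase and the transporter thus moved apart.

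Abscisic acid genes rose in 8 of 14 and fell in 2 (median 0.83). RAB18 (AT5G66400), a dehydrin, was at 2.39 and 4.2 CPM and then 34.6 and 17.9 CPM (2.99, SE 0.36, edgeR adjusted p = 5.69e-06). RD29B, outside the filter, had 6 and 18 counts and then 345 and 99. Both were higher in library 1 with 0.25 μM Dex, as the seed storage and oil body markers were (1390 and 113 CPM in sum), and the part of the seed signal in these values was not tested. Other members outside the filter had no common direction. KIN1 had 164 and 150 counts and then 9 and 8, HAI2 4 and 11 and then 19 and 24, and NCED3 27 and 33 and then 19 and 20. ABI2, a phosphatase that damps the signal, rose from 6.62 and 5.26 CPM to 34.0 and 29.4 CPM (2.41, SE 0.14, edgeR adjusted p = 4.01e-09) and COR47, another dehydrin, by 1.65. P5CS1, of proline synthesis, fell by 1.55 and RD29A by 1.11.

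A pair of iron uptake genes, IRT1 and FRO2, rose in both lines. IRT1, the root iron transporter, was at 6.94 and 15.2 CPM and then 53.0 and 78.9 CPM in P1-12, and at 10.3 and 3.01 CPM and then 25 and 52.2 CPM in KRAB. The log2 fold changes were 2.58 (SE 0.43, edgeR adjusted p = 0.000128) and 2.73 (SE 0.46, edgeR adjusted p = 0.00511). FRO2, the ferric reductase of the same uptake system, rose by 2.36 in P1-12 and 2.72 in KRAB. The differences, −0.15 for IRT1 and −0.36 for FRO2, did not pass the test. Over 9 iron genes 5 rose and 1, NAS4, fell in P1-12 (median 0.44), and in KRAB IRT1 and FRO2 were the 2 that rose, with none lower (median 0.30). Of 10 phosphate genes 4 rose and 3 fell (median 0.02), the falls being SQD1, SQD2 and MGD2 of membrane lipid synthesis, by 1.27, 1.22 and 0.99.

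Growth genes fell. All but 1 of 21 mitotic and replication genes were lower, with a median of −1.09 and a narrow range from −1.49 to −0.08, and the exception was CYCD3;1. CYCB1;1, a cyclin of the G2-to-M transition, was at 12.5 and 9.71 CPM in P1-12 (+DMSO) and 4.11 and 3.84 CPM in P1-12 (+0.25 μM Dex) (−1.49, SE 0.18, edgeR adjusted p = 8.2e-06), and KNOLLE, the syntaxin of cytokinesis, at 66.1 and 59.8 CPM and 26.8 and 26.9 CPM (−1.23, SE 0.09, edgeR adjusted p = 2.59e-08). Of 6 genes of the DNA damage response 4 fell, TSO2 of nucleotide synthesis by 1.08 and PARP1 by 0.42, and 1, PARP2, rose (median −0.75). No member of either list passed the test in KRAB. A lower share of dividing cells and less RNA per dividing cell cannot be told apart here either.

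Cell wall loosening enzymes and aquaporins, which serve cell expansion, fell in 12 of 21 and rose in 5 (median −0.60). EXPB3, a beta-expansin, was at 103 and 107 CPM and then 9.37 and 10.6 CPM (−3.39, SE 0.10, edgeR adjusted p = 1.02e-11). EXPA5 fell by 2.40 and TIP2;1, a tonoplast aquaporin, by 1.97. XTH23, a xyloglucan-modifying enzyme, rose from 9.34 and 9.21 CPM to 49.0 and 44.4 CPM (2.33, SE 0.21, edgeR adjusted p = 4.19e-07), and PIP1;2 was at 537 and 606 CPM and 541 and 591 CPM. Of 19 auxin response genes only 6 were tested, of which 5 fell (median −1.46). IAA3, an AUX/IAA repressor, was at 29.0 and 26.7 CPM and then 4.42 and 2.99 CPM (−2.92, SE 0.18, edgeR adjusted p = 9.16e-09) and GH3.3, which conjugates auxin, fell by 2.39. Outside the filter the members went both ways. IAA19 had 118 and 109 counts and then 14 and 12, IAA29 23 and 21 and then 94 and 108, and LBD16, a regulator of lateral root initiation, 8 and 11 and then 96 and 82.

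Clock, root and reference genes had list medians near 0. Of 13 clock genes 5 rose and none fell (median 0.14), where 3 fell in KRAB. GI, an evening gene, was at 171 and 169 CPM and then 328 and 349 CPM (0.99, SE 0.07, edgeR adjusted p = 2.7e-08), and TOC1 rose by 0.64, while LHY and BOA, higher by 0.94 and 0.91, lost their calls without P1-12 (+DMSO) replicate 1 (0.61 and 0.89), and BOA also without P1-12 (+0.25 μM Dex) replicate 2 (0.76). Among 14 markers of the root tip, hairs and endodermis 3 fell and 1 rose (median −0.13), and their summed level was 165 and 174 CPM in P1-12 (+DMSO) and 152 and 169 CPM in P1-12 (+0.25 μM Dex). GL2, which specifies non-hair cells and trichomes, fell by 1.36. Of 10 reference genes 4 rose and 2 fell (median 0.13). ACT8, an actin gene, was at 298 and 297 CPM and then 584 and 608 CPM (1.00, SE 0.07, edgeR adjusted p = 4.16e-08), UBQ10 rose by 0.93 and GAPC2 fell by 0.70.

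Of 12 tested phenylpropanoid and anthocyanin genes 3 rose, 3 fell and all lay within 2-fold (median −0.12), while 6 of the 12 rose and 1 fell in KRAB. FLS1, the flavonol synthase, fell by 0.70 and lost its call without P1-12 (+DMSO) replicate 1 (−0.35). The other 11 genes of the list were not tested, and a fall to near absence is itself a reason for that. Of these 5 exceeded 2 CPM in 2 or more of the 4 libraries and are given here. DFR, the dihydroflavonol reductase, had 229 and 247 counts in P1-12 (+DMSO) and 8 and 4 in P1-12 (+0.25 μM Dex), LDOX had 130 and 118 and then 7 and 2, and TT19, which carries anthocyanin to the vacuole, 32 and 43 and then 2 and 3. UGT75C1, an anthocyanin glucosyltransferase, had 26 and 43 and then 4 and 4, and MYB111, a regulator of the flavonol branch, 28 and 26 and then 1 and 1.

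Genes read only in 1 of the groups were looked for among the 18105 genes over 2 CPM in any 2 of the 4 libraries, of which 1384 lay outside the 9-library filter. With at most 3 counts in each P1-12 (+DMSO) library 69 genes appeared in P1-12 (+0.25 μM Dex), and 38 were lost the other way. Some of those that appeared belong to the late phase of seed development. Seed or embryo tissue in the sample and expression of these genes in seedlings cannot be told apart from the counts. CRC, which encodes the storage protein cruciferin, had 0 and 0 counts in P1-12 (+DMSO) and 4804 and 324 in P1-12 (+0.25 μM Dex), at least 2084-fold higher in library 1 and at least 125-fold in library 2, against a floor of 3 counts per library. M17, a late embryogenesis protein, had 1 and 2 and then 559 and 109, and OLEO1, an oil body protein, 3 and 3 and then 279 and 86. The treated libraries were far from equal in these genes, and library 1 was the higher in each. The seed list as a whole summed to 2.15 and 2.39 CPM in P1-12 (+DMSO) and to 1390 and 113 CPM in P1-12 (+0.25 μM Dex), and 0 of its 10 genes could be tested. ABI3, the regulator of seed maturation, was picked after its values were seen and had 0 and 1 counts and then 131 and 59.

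Others appeared to the same level in both treated libraries. PEI1, a zinc finger gene of embryo development, had 0 and 1 counts and then 335 and 357, and AT3G58060, a cation efflux gene, 0 and 3 and then 293 and 355. Lost in both were GASA5, a gibberellin-regulated gene (160 and 137 counts and then 0 and 0, at least 40.2-fold lower), and AT3G46370, a receptor-like kinase (188 and 166 and then 3 and 2). MBP1, a myrosinase-binding protein, went from 360 and 2345 counts to 1 and 1, with library 2 of P1-12 (+DMSO) the higher as in LOX2 and VSP2 above. GASA5 was picked after its values were seen.

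Organelle transcripts and ribosomal RNA moved with the treatment. The 3 mitochondrial loci that were tested rose, ATMG00020 from 499 and 507 CPM in P1-12 (+DMSO) to 2058 and 1662 CPM in P1-12 (+0.25 μM Dex) (1.89, SE 0.09, edgeR adjusted p = 1.12e-09). All mitochondrial loci together took 0.0693% and 0.0691% of the counts and then 0.328% and 0.255%. Of 47 plastid loci 20 rose and 18 fell (median −0.07), where 28.3% of all tested genes rose and 29.2% fell. All plastid loci together took 1.01% and 0.968% of the counts and then a lower share, 0.799% and 0.609%. In KRAB 0 of the 47 passed as higher, and their median was −0.40. ATCG00350 rose most of the 47, from 20.7 and 22.1 CPM to 229.7 and 144 CPM (3.13, SE 0.29, edgeR adjusted p = 4.17e-07). AT3G41768, annotated as 18S ribosomal RNA, was at 518 and 539 CPM and then 4242 and 3123 CPM, while in KRAB it was at 508 and 540.5 CPM and then 492 and 317 CPM. In all 3 of these loci library 1 with 0.25 μM Dex was higher than library 2. How RNA was selected for the libraries is not given in the sources used here, and the part of that selection in these values was not tested.

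The largest rises were shared in part with KRAB, and few of the falls were. Of 729 upregulated SDEGs with a rise of 2-fold to 4-fold, 9.33% were also higher in KRAB with Dex, of 239 with 4-fold to 16-fold 25.5%, and of 23 with 16-fold or more 91.3%, against 2.06% of all tested genes. The KRAB libraries took part in choosing these genes only through the expression filter and the shared spread. Of downregulated SDEGs in the same bins, 1139, 193 and 15 genes, 1.23%, 1.55% and 0% were lower in KRAB, against 0.813% of all. The last bin is too small to show a share of that size. In the top bin the median log2 fold change was 4.53 in P1-12 and 1.62 in KRAB.

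AT2G05510, a glycine-rich protein gene, had the largest rise among the 16721 tested genes. It was at 10.5 and 15.6 CPM in P1-12 (+DMSO) and 3564 and 3357 CPM in P1-12 (+0.25 μM Dex) (8.05, SE 0.38, edgeR adjusted p = 6.32e-10), and at 10.4 and 6.84 CPM and then 127 and 50.8 CPM in KRAB (3.49, SE 0.35, edgeR adjusted p = 9.47e-05). GAD4, a glutamate decarboxylase, went from 3.03 and 4.03 CPM to 484 and 473 CPM in P1-12 and from 4.08 and 4.21 CPM to 161 and 67.6 CPM in KRAB. AT2G43590, a chitinase family gene, went from 14.2 and 16.8 CPM to 606 and 583 CPM in P1-12 and from 14.1 and 21.9 CPM to 189 and 65.9 CPM in KRAB. For all of them the KRAB libraries with Dex lay between the 2 P1-12 groups, with library 1 above library 2. MYBC1, a GARP-type transcription factor, rose by 4.89 in P1-12 and 1.29 in KRAB.

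**Figure D5:**
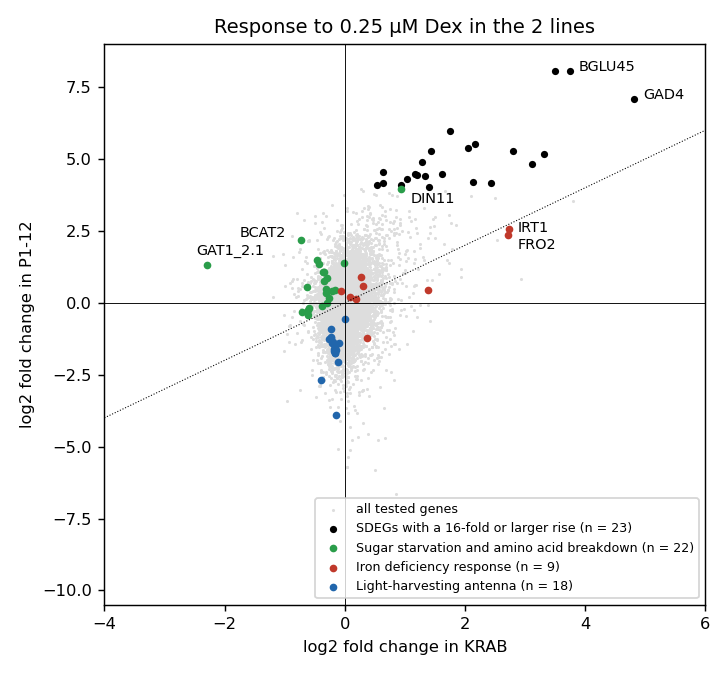
Log2 fold change with 0.25 μM Dex in P1-12 (vertical axis) against that in KRAB (horizontal axis) for all tested genes (grey), the 23 SDEGs with a 16-fold or larger rise (black), the sugar starvation list (green), the iron list (red) and the antenna list (blue), with equal responses on the dotted line. The black points lie to the right of 0 and above the line, IRT1 and FRO2 lie near the line, and the antenna genes lie below 0 near the vertical axis.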

How the data were processed

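RNA of whole seedlings was sequenced by the authors. Their processing notes name Trimmomatic, TopHat2, the build TAIR10 and HTSeq, per the labels. No version or strand setting is given in the sources used here, so overlapping, antisense and near-identical genes are uncertain. The deposited table holds raw counts of 33602 loci without normalization, of which 32835 matched the TAIR10.1 annotation used for symbols and coordinates. The locus of MORF2 was taken from general knowledge, since that annotation lacks it.

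The test was edgeR 4.0.16 under R 4.3.3 (glmQLFit and glmQLFTest, TMM factors, 1 mean per group over 5 groups), run on genes over 2 CPM in 9 or more libraries, the filter of the study. The 4 libraries hold 9139050 to 12965935 counts, those of the series up to 40544617. SDEGs changed 2-fold or more at an adjusted p under 0.0001. The difference between the lines was tested as an interaction over all genes. The code was tested on simulated counts. DESeq2 1.42.0, other scalings, filters, the replicate block and leaving out each library were tried.

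The members and the 34 gene lists (577 loci) were chosen with earlier results of these data known. Genes were named by a fixed rule: MORF2, the 10 largest rises and falls at a mean CPM of at least 20, up to 4 changed members and the highest one of each list, up to 5 genes with at most 3 counts in 1 group, the 5 highest genes of each group and 3 of each organelle. Other list members are given with their values, were chosen after these were seen, and support nothing.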

Additional observations from a re-analysis of the deposited data

Results flagged for a closer look

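The response to Dex differed between P1-12 and KRAB, by the interaction term, in 3835 genes with a more positive response in P1-12 and in 4198 with a more negative one. Among the listed genes 14 were called in opposite directions in the lines and also passed the test of the difference, given here as P1-12 minus KRAB on the log2 scale. It was 3.59 for GAT1_2.1, 2.90 for BCAT2, 1.96 for IVD, 1.76 for TPS9, 1.43 for TPS10 and 1.17 for DIN10, all of the sugar starvation list, higher in P1-12 and lower in KRAB. TOC1 of the clock differed by 0.98, CAT1 (a catalase) by 0.71, PHT1;1 (a phosphate transporter) by 0.70, NYC1 by 0.69 and GLYK (glycerate kinase) by 0.61 in the same sense. GSTU25 differed by −0.91, MAM3 by −1.45 and PRP3, a root hair protein gene, by −1.54, lower in P1-12 and higher in KRAB. Over all tested genes 57 were higher in P1-12 and lower in KRAB, and 46 the other way, beside 227 higher and 46 lower in both.

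Signal outside the tested genes stood above the control in 69 genes that had at most 3 counts in each P1-12 (+DMSO) library, and 38 genes were lost in the same sense. In library 1 of P1-12 (+0.25 μM Dex), CRC had 4804 counts, M17 559 and OLEO1 279, and in library 2 they had 324, 109 and 86. In KRAB (+0.25 μM Dex) the same genes had 0 and 1, 6 and 0 and 1 and 0 counts. The part of the 1 library with the highest values in these results was not tested.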

How the results depend on the processing

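Of the alternatives to the main counts and to MORF2, 91 values stayed within the limits set and 3 moved: with no filter beyond 1 count in any library 1556 genes were upregulated SDEGs among 24782 tested, and against a 2-fold null (glmTreat) 330 genes were up and 350 down. Without 1 replicate, upregulated SDEGs numbered 781 to 918, downregulated SDEGs 986 to 1197, genes higher 3848 to 4104 and genes lower 4137 to 4325, and MORF2 was at −1.14 to −1.04. Counts of list members called stayed within 1.5 times the main count in 698 cases and moved further in 94. A change of sign of a list median was counted only where the main median was not close to 0, and 395 of 396 cases had none. The exception was the sulfate list, which ranged from −0.042 without P1-12 (+DMSO) replicate 1 to 0.15 without replicate 2. Of the named genes 159 kept direction and call throughout, none reversed, and UPOX, NYE1, FLS1, PHT1;1, LHY, BOA, LRX1 and CASP1 lost a call at least once.

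The replicate numbers do not pair the samples by any label, and the deviations of same-numbered libraries correlated at 0.0187 over 2 pairs. With the replicate block 971 genes were upregulated and 1309 downregulated SDEGs, 4641 were higher and 4822 lower, and MORF2 was at −1.09.

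Depth limits genes below 2 CPM, and 2 libraries per group limit every test.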
